A study of Rattus norvegicus with 6 samples.

Results

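The genes described here encode 10 enzymes that build purine and pyrimidine nucleotides. They were chosen by symbol from the 17327 genes counted in each file, with earlier results of these data known. These were the purine genes Ppat, Gart, Paics, Adsl, Atic, Impdh1 and Impdh2 and the pyrimidine genes Cad, Umps and Ctps1, and all 10 were found and passed the filter on low counts. The cells were primary Schwann cells, the glia of peripheral nerves, grown from the sciatic nerves of adult female Wistar rats. They had been expanded in a medium that already held recombinant soluble NRG1β1, and were then starved without it for 18 h in 2% serum. After that they received either 10 nM of the same NRG1β1 or its buffer (mock) for 6 h. NRG1 was thus added back rather than given for the first time. Forskolin at 10 μM, which raises cAMP, was present in both groups, and so neither group shows cells without it. Each of 3 independent cell preparations gave 1 mock and 1 NRG1 sample, and the question was which genes NRG1 regulates early.

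Purine bases are assembled step by step on a sugar phosphate until inosine monophosphate (IMP) is formed, and IMP is then turned into either AMP or GMP. The pyrimidine ring is made first and joined to the sugar afterwards, giving UMP, from which CTP is formed. Both routes draw on glutamine and on phosphoribosyl pyrophosphate (PRPP), and the purine route also needs one-carbon units carried by folate. Cells that grow or make much RNA rely on these routes, since nucleotides are the substrate of ribosomal and messenger RNA.

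Counts on genes ranged from 6821590 to 15475018 per sample, and 3 counts, taken as the floor, were between 0.19 and 0.44 CPM (the unit of level used here, counts scaled to the same normalised library size). The 10 genes had between 141 and 7922 counts in every sample, far above that floor. Both samples of replicate 1 stood apart from the other 4 on a first principal component that held 68.0% of the variance. Of 8 fibroblast markers, Thy1, Dcn and Lum were counted in both samples of replicate 1 and were at 0 in the other 4, and the summed level of the list was 53433 and 57725 CPM in replicate 1 against 13693 to 22332 CPM elsewhere. Outside replicate 1 nearly all of this sum was Col1a1, at 13413 to 21494 CPM, while Col1a2 was at 0 in 5 of the 6 samples and had 2 counts in the other, and no level is read from that. The 10 Schwann cell markers summed to 6367 and 5089 CPM in the mock and NRG1 sample of replicate 1 and to between 12988 and 16482 CPM in the others. Sox10 was present in every sample and Fabp7 was listed at 0 in all. Of 9 macrophage markers, summing to between 3.23 and 10.7 CPM, Ptprc, Adgre1 and Cd163 were at 0 in all 6 samples. Of 7 endothelial markers, summing to between 6.53 and 15.4 CPM, Pecam1, Cdh5 and Emcn were at 0 in all. Of 7 neuron markers, summing to between 817 and 2362 CPM, nearly all of it Nefm, Rbfox3 was at 0 in all. Fewer cells of a type and less RNA per cell cannot be told apart in such samples.

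NRG1 up-regulated 5 of the 10 genes, namely Cad, Atic, Gart, Ppat and Adsl, by 1.49-fold to 2.15-fold. No gene of the 10 was down-regulated, and the other 5 had smaller changes that did not pass the test. The test was edgeR's quasi-likelihood test with the replicate number as a block, called at a Benjamini-Hochberg adjusted p of at most 0.01 over the 9740 genes tested, of which 6.31% were called up and 5.51% down. Only Cad also passed the log2 fold change of 1 that the study's own rule adds, against 1.56% of all genes tested that were up by both thresholds. The median log2 fold change was 0.49 over the 10 genes and -0.03 over all genes tested, and all 10 fitted changes were above 0, as were those of 47.2% of all genes. Within the cultures, the NRG1 sample was the higher in all 3 pairs for 9 of the 10 genes, against 25.9% of all genes tested. All 3 NRG1 levels lay above all 3 mock levels for 4 genes, Cad, Atic, Impdh2 and Paics, a separation found for 10.2% of all genes. Since the 10 genes were chosen with earlier results known, the shares over all genes are set beside them as a description only. The 5 calls rest on the pairing. In edgeR without the replicate block none of the 10 passed, and 4 had an unadjusted p under 0.05, as had 1334 of all 9740 genes tested. The adjusted p of the 5 genes in that fit lay between 0.15 for Atic and 0.48 for Adsl, with log2 fold changes between 0.57 and 1.10.

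Without replicate 1, where Thy1, Dcn and Lum were counted, 4 of the 10 genes passed, and their median log2 fold change over all 10 was 0.54. Of all genes tested in that setting, 5.94% were up-regulated. Adsl was the gene that no longer passed (adjusted p = 0.012 in edgeR's quasi-likelihood test). Some Schwann cell markers moved with the treatment too. Of the 9 tested, 3 were down-regulated, Cdh19 and S100b among them, and none was up-regulated, against 5.51% of all genes tested called down. The other 6 were not called, and 3 of the 9 had a log2 fold change above 0, of at most 0.16. The summed level of the list was lower in the NRG1 sample of each pair. The part of these markers in the results was not tested.

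**Figure D1:**
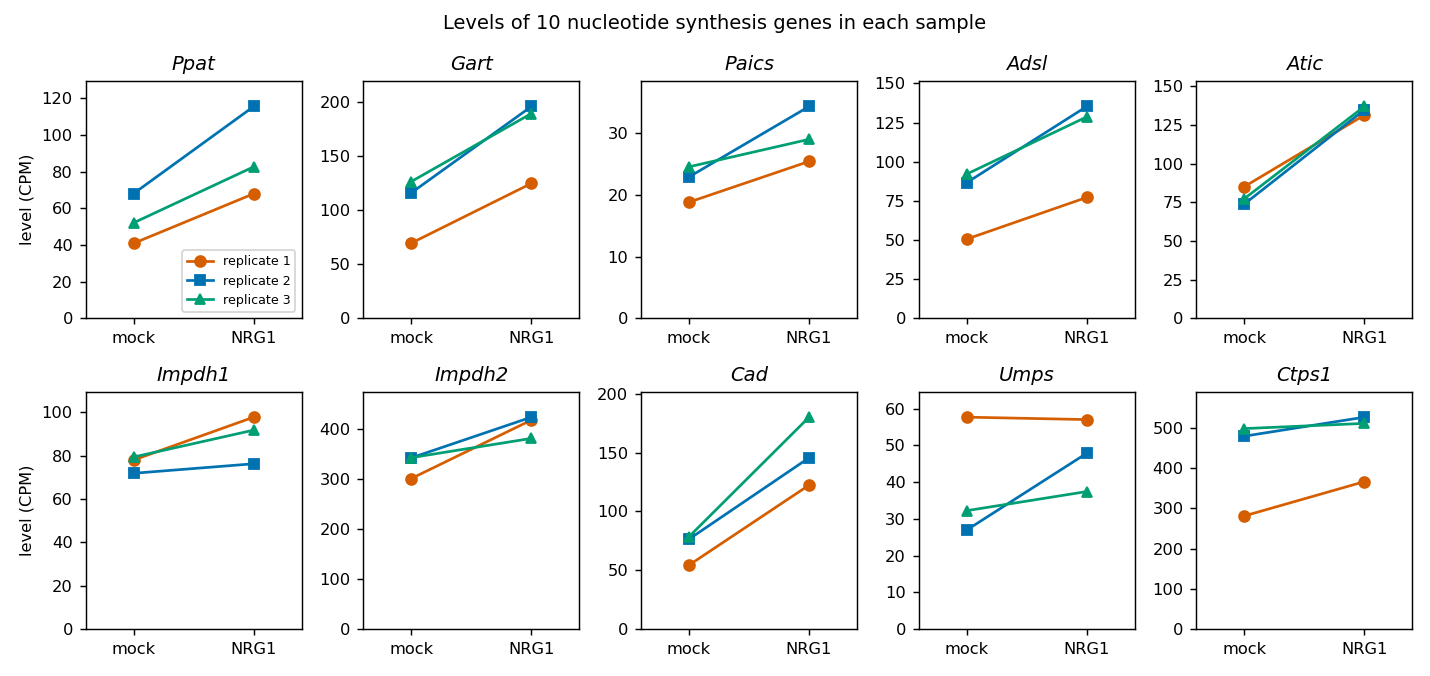
Level of each gene in CPM (vertical axis, from 0, with its own scale in each panel) in mock and NRG1 samples, where each line joins the 2 samples of a replicate. Cad rose from between 54.2 and 78.4 CPM to between 122.4 and 180.2 CPM. The groups overlapped for Ppat, Gart, Adsl, Impdh1, Umps and Ctps1, though Ppat, Gart and Adsl rose within every replicate. Umps was level in replicate 1.

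Cad encodes the large enzyme that carries out the first 3 steps of pyrimidine synthesis, and it changed most of the 10 genes. Its level was 54.2, 76.4 and 78.4 CPM in mock samples 1, 2 and 3 and 122.4, 145.7 and 180.2 CPM in NRG1 samples 1, 2 and 3. Every NRG1 sample was thus above every mock sample, and each culture rose, by 2.25-fold, 1.91-fold and 2.30-fold. The means were 69.7 ± 13.4 CPM (SD, n = 3) and 149.4 ± 29.1 CPM (SD, n = 3), and edgeR gave a log2 fold change of 1.10 (standard error, SE, of 0.12, adjusted p = 2.8e-05). By p-value Cad was at position 71 of all genes tested.

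Atic encodes the enzyme of the last 2 steps to IMP. Its level was 85.1, 73.8 and 77.3 CPM in the mock cultures and 131.4, 134.9 and 137.0 CPM in the NRG1 cultures. The spread within each group was small for this gene, with a SD of 5.78 CPM in mock and 2.82 CPM in NRG1 samples, and the groups did not overlap. Its log2 fold change was 0.77 (SE 0.12, adjusted p = 0.00039 in edgeR's test), a rise of 1.71-fold.

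Ppat encodes the amidotransferase that commits PRPP to the purine route, and Gart an enzyme with 3 activities in the steps that follow. Ppat was at 40.9, 68.1 and 52.1 CPM in the mock cultures and at 68.0, 115.6 and 82.7 CPM in the NRG1 cultures. Gart was at 69.5, 116.0 and 126.5 CPM in the mock cultures and at 124.8, 196.0 and 189.5 CPM in the NRG1 cultures. For both genes the groups overlapped, because the NRG1 sample of replicate 1 stood no higher than a mock sample of another culture, but the rise recurred within every culture. The fitted changes were alike in size, with a log2 fold change of 0.72 for Ppat (SE 0.12, adjusted p = 0.00065) and 0.72 for Gart (SE 0.12, adjusted p = 0.00067).

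Adsl encodes a lyase that acts once on the way to IMP and once more in making AMP. It was counted at 50.5, 86.6 and 92.0 CPM in the mock cultures and at 77.2, 135.3 and 128.7 CPM in the NRG1 cultures. Replicate 1 was the lowest in both groups, and the log2 ratios within cultures were 0.61, 0.64 and 0.48. Its log2 fold change of 0.58 (SE 0.12, adjusted p = 0.0028) was the smallest of those that passed edgeR's test. Besides replicate 1, leaving out replicate 3 also took Adsl out of the calls, to an adjusted p of 0.0104, and over the alternatives that kept the block its adjusted p ranged from 0.00043 to 0.012.

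Promoter sequences were read for those of the 10 genes for which they were given, up-regulated or not. RefSeq windows of 300 bases, from 250 before to 50 after the annotated start on the GRCr8 assembly, were given for 9 of the 10 genes, with 2 windows for Impdh1. The motif searched first was the E-box CACGTG, the site bound by Myc and related factors, which reads the same on both strands. Within these windows only Atic of the 9 genes held it. It did so once from 50 to 45 bases before the start and once from 17 to 22 bases after it. Of the 33469 windows of all genes, 6.42% held it at least once and 0.52% more than once. Bases more than 50 after the start or more than 250 before it were not searched. Its absence from a window, that of Cad included, thus does not show that the gene lacks such a site. The GC box GGGCGG and the CCAAT box CCAAT, both searched on both strands and chosen after the values were seen, were in 33.1% and 37.5% of all windows. The 250 bases before the start are shown for Cad, Atic and Gart, the genes with the largest changes, from 5′ to 3′ on the strand of the gene, and capitals mark the letters of these 3 motifs. The windows are chr6:31035037-31035286 (minus strand) for Cad, chr9:80614061-80614310 (plus strand) for Atic and chr11:44377087-44377336 (minus strand) for Gart.
Cad: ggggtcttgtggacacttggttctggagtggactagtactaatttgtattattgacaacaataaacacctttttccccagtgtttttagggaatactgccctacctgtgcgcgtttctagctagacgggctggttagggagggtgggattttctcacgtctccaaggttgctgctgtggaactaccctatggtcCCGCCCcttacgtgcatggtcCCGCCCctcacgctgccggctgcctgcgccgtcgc
Atic: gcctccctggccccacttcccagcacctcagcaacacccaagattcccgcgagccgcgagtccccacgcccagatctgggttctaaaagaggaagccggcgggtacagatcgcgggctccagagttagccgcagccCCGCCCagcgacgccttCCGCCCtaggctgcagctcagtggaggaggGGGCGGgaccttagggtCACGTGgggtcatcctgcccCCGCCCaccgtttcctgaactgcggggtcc
Gart: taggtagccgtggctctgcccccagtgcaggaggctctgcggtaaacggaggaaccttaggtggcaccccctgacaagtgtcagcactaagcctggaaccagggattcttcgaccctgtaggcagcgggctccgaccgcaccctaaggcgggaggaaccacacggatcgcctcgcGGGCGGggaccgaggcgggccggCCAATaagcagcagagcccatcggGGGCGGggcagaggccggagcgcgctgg
In the full windows the GC box occurred 4 times in Atic, 2 times each in Cad, Gart and Adsl and 1 time in Ppat. Among the genes that did not pass the test it occurred 3 and 4 times in the windows of Impdh1 and 2 times in Ctps1, and it was not found in those of Paics and Impdh2. Gart and Impdh2 held 1 CCAAT box each. These matches describe the letters only, and no binding was measured.

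Paics encodes the enzyme of 2 steps in the middle of the purine route, and it did not pass the test although its groups were separate. Its level was 18.8, 22.9 and 24.6 CPM in the mock cultures and 25.5, 34.4 and 29.0 CPM in the NRG1 cultures. The log2 fold change was 0.41 (SE 0.14, adjusted p = 0.048 in edgeR's test), with the largest ratio in replicate 2 and the smallest in replicate 3. At an adjusted p of at most 0.05, which 11.5% of all genes tested reached in the upward direction, Paics was the sixth of the 10 genes to pass. Paics and Ppat lie head to head on opposite strands of chromosome 14. On GRCr8 their annotated starts are so placed that the transcripts overlap by 26 bases, and the promoter windows share 74 bases. The setting for strand in the counting is not given in the sources used here, so reads of the overlap could not be told apart. In the same annotation the span of Gart overlaps that of Son, that of Impdh2 overlaps Ndufaf3, and that of Ctps1 overlaps Scmh1 and Slfnl1.

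Impdh1 and Impdh2 encode the isozymes that open the branch from IMP to GMP, and neither passed the test. Impdh2 was counted at 301.6, 343.0 and 343.4 CPM in the mock cultures and at 418.9, 424.7 and 382.1 CPM in the NRG1 cultures. Every NRG1 sample was above every mock sample, but the log2 fold change of 0.31 (SE 0.12, adjusted p = 0.081 in edgeR's test) did not pass. Impdh1 was at 78.0, 71.9 and 79.4 CPM in the mock cultures and at 97.9, 76.3 and 91.9 CPM in the NRG1 cultures. These groups overlapped, and the log2 fold change was 0.21 (SE 0.12, adjusted p = 0.22).

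Umps, which encodes the enzyme of the last 2 steps to UMP, differed between the cultures. It was at 57.7, 26.9 and 32.2 CPM in the mock cultures and at 57.1, 47.9 and 37.4 CPM in the NRG1 cultures. The mock sample of replicate 1 held the highest level of all 6, and its log2 ratio was -0.02, against 0.83 in replicate 2 and 0.22 in replicate 3. The fitted log2 fold change was 0.33 (SE 0.16, adjusted p = 0.15 in edgeR's test). It was 0.51 (adjusted p = 0.051) without replicate 1 and 0.10 (adjusted p = 0.59) without replicate 2, so that its size moved with the culture left out.

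**Figure D2:**
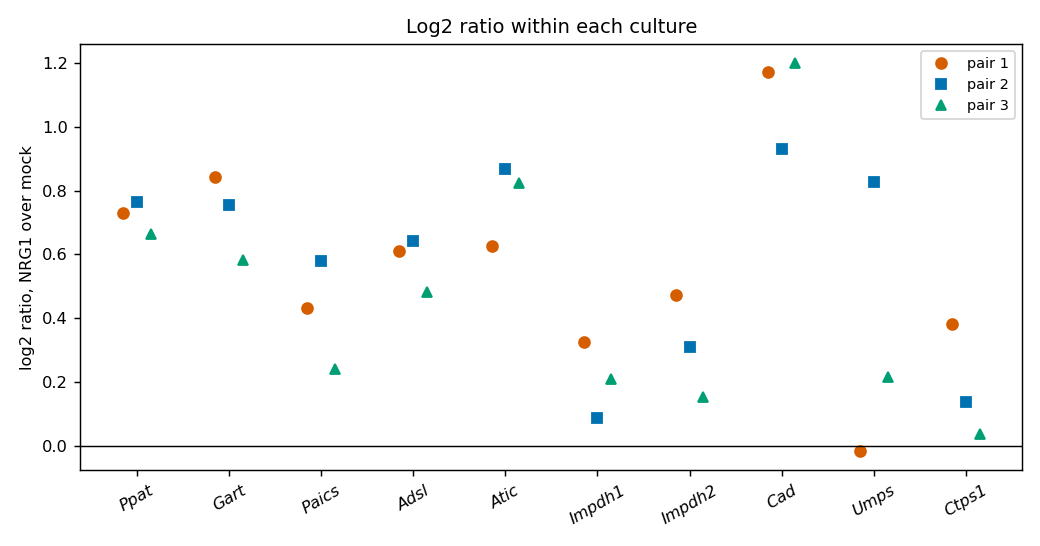
Log2 ratio of the NRG1 over the mock sample in each replicate pair (vertical axis), for the 10 genes along the horizontal axis. The 3 points lie close together for Ppat and Adsl, and they spread from -0.02 to 0.83 for Umps.

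Ctps1 and Ctps2 encode isozymes of CTP synthase, which makes CTP from UTP. Ctps1 was counted at 281.1, 479.6 and 498.5 CPM in the mock cultures and at 366.5, 527.0 and 511.4 CPM in the NRG1 cultures. The groups overlapped, since both samples of replicate 1 were below all others, and the log2 fold change was 0.18 (SE 0.12, adjusted p = 0.31 in edgeR's test). Its isozyme gene was lower with NRG1. The level of Ctps2 was 117.2, 89.8 and 118.8 CPM in the mock cultures and 65.1, 50.6 and 53.5 CPM in the NRG1 cultures. All NRG1 samples were below all mock samples, and the gene was down-regulated with a log2 fold change of -0.95 (SE 0.12, adjusted p = 0.00011).

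The log2 ratio of Ctps2 to Ctps1 counts was -1.26, -2.41 and -2.07 in the mock cultures and -2.49, -3.38 and -3.25 in the NRG1 samples. It was lower with NRG1 in each culture, with a mean difference of -1.13 ± 0.14 (SD, n = 3 pairs), although an exact paired permutation test, two-sided, cannot give a p below 0.25 with 3 pairs and gave that value. This ratio was computed after the values had been seen. The log2 ratio of Impdh2 to Impdh1 changed by 0.15, 0.22 and -0.06 in the 3 cultures, a mean of 0.11 ± 0.14 (SD, n = 3 pairs; exact paired permutation test, two-sided, p = 0.50). Reads of such similar genes may be shared between them by the mapping, and gene lengths were not used, so a ratio within a sample does not give the relative amount of the isozymes.

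**Figure D3:**
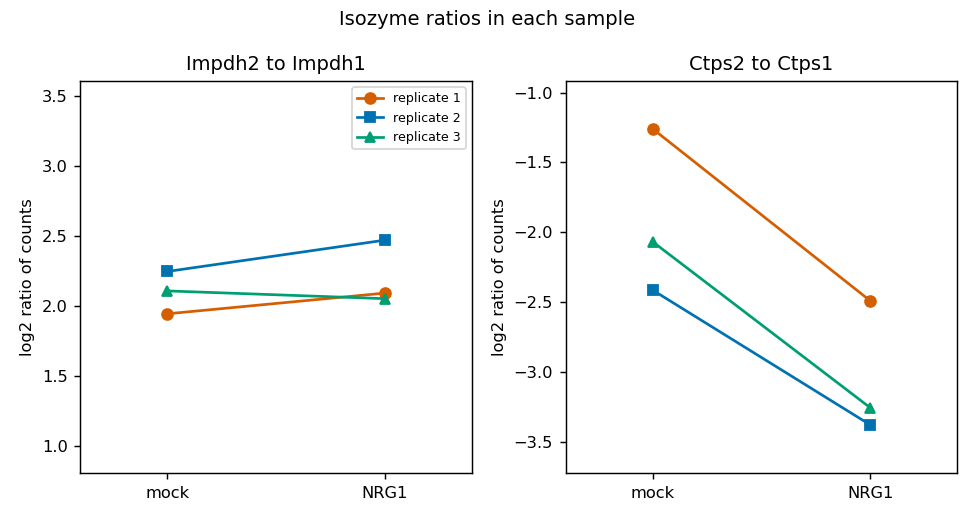
Log2 ratio of the counts of Impdh2 to Impdh1 and of Ctps2 to Ctps1 (vertical axes, both spanning the same range) in mock and NRG1 samples, where a line joins the samples of a replicate. The Ctps2 to Ctps1 ratio fell in each culture, by between 0.96 and 1.23, while the changes of the Impdh ratio had both signs.

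Of 7 further purine genes tested, 2 were up-regulated and none was down-regulated, against 6.31% and 5.51% of all genes tested. Prps1, which encodes a synthetase of the shared precursor PRPP, rose from a mock mean of 25.3 ± 3.42 CPM (SD, n = 3) to 43.8 ± 9.25 CPM (SD, n = 3), with a log2 fold change of 0.77 (SE 0.15, adjusted p = 0.0018). Pfas, whose enzyme acts between steps carried out by Gart, rose from a mock mean of 46.5 ± 6.31 CPM (SD, n = 3) to 77.6 ± 10.7 CPM (SD, n = 3), with a log2 fold change of 0.74 (SE 0.12, adjusted p = 0.00074). The genes of the branches after IMP had log2 fold changes of 0.30 for Gmps (adjusted p = 0.099) and 0.29 for Adss (adjusted p = 0.12). Prps2, the paralogue of Prps1, had one of 0.03 (adjusted p = 0.89).

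On the pyrimidine side, Dhodh, which encodes the mitochondrial dehydrogenase between Cad and Umps, was at 7.62, 8.43 and 9.06 CPM in the mock cultures and at 14.4, 15.6 and 14.9 CPM in the NRG1 cultures. Its counts were the lowest of the route, between 57 and 231, and its log2 fold change was 0.83 (SE 0.18, adjusted p = 0.0041). This call was lost in DESeq2 with the replicate block (adjusted p = 0.020), and in edgeR without replicate 2 (adjusted p = 0.011) and without replicate 3 (adjusted p = 0.021). Cmpk1, the kinase of UMP and CMP, had a log2 fold change of 0.15 (adjusted p = 0.44). Over all 20 synthesis genes tested, the 10 members included, 8 were up-regulated and 1 was down-regulated, against 6.31% and 5.51% of all genes tested. Whether the genes before IMP or UMP changed more than those after was not tested.

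**Figure D4:**
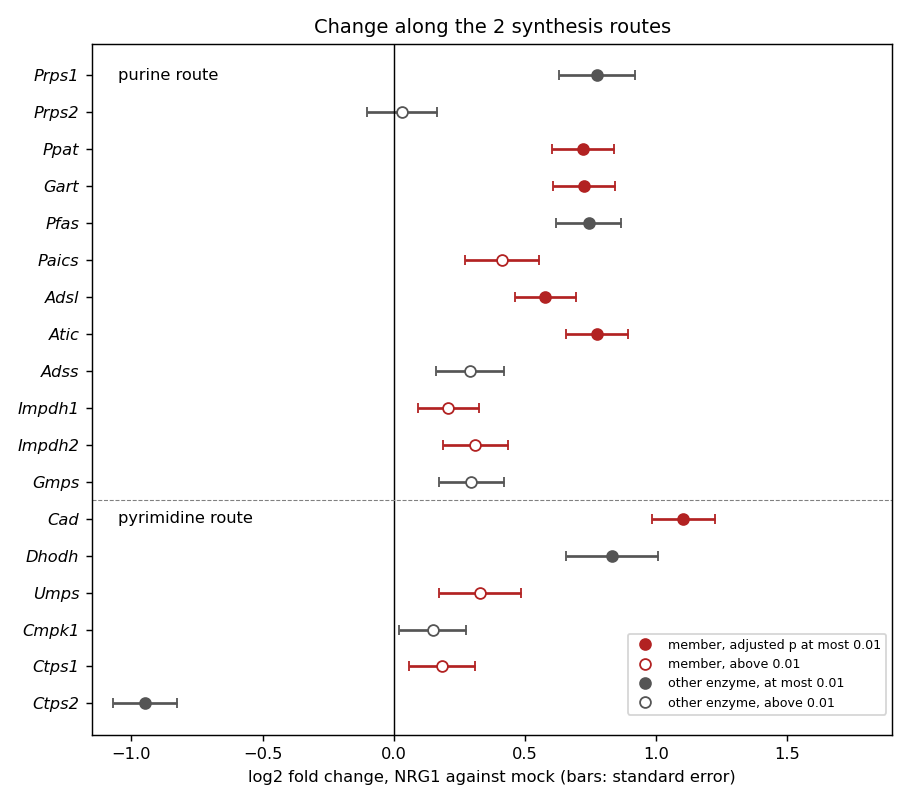
Log2 fold change of NRG1 against mock (horizontal axis, bars give the standard error) for 18 enzymes in the order of the purine and the pyrimidine route. Filled points passed an adjusted p of 0.01, and these run from 0.58 to 1.10 except for Ctps2 at -0.95.

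Genes that feed, recycle or break down nucleotides were read as lists beside the synthesis genes. Of the one-carbon genes, 4 of 6 tested were up-regulated, against 6.31% of all genes tested. Shmt2, the mitochondrial hydroxymethyltransferase that takes a carbon from serine, rose from a mock mean of 119.5 ± 10.1 CPM (SD, n = 3) to 243.7 ± 6.99 CPM (SD, n = 3), with a log2 fold change of 1.03 (SE 0.12, adjusted p = 5.4e-05). Mthfd1, which makes the formyl folate used by Gart and Atic, had a log2 fold change of 0.80 (adjusted p = 0.00060), Shmt1 one of 0.89 (adjusted p = 0.0064) and Mthfd1l one of 0.55 (adjusted p = 0.0060). Without replicate 1 only 2 of these genes passed, since Shmt1 (adjusted p = 0.013) and Mthfd1l (adjusted p = 0.046) were lost. Shmt1 was also lost without replicate 2 (adjusted p = 0.034) and in DESeq2 with the replicate block (adjusted p = 0.026), and Mthfd1l without replicate 3 (adjusted p = 0.018).

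Of 11 salvage genes tested, 2 were up-regulated and none was down-regulated, against 6.31% and 5.51% of all genes tested. Both act on uridine. Upp1, uridine phosphorylase, was at 2.81, 2.96 and 5.28 CPM in the mock cultures and at 6.67, 11.8 and 15.2 CPM in the NRG1 cultures, with a log2 fold change of 1.59 (SE 0.22, adjusted p = 0.00023). Uck2, a kinase of uridine and cytidine, had a log2 fold change of 0.92 (SE 0.15, adjusted p = 0.00059). Hprt1, the salvage enzyme of hypoxanthine and guanine that nearly all cells use, was listed at 0 in all 6 samples, and no level is read from that.

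Of 11 nucleotide kinases tested, 3 were up-regulated, against 6.31% of all genes tested. Among them were Nme1 with a log2 fold change of 0.89 (adjusted p = 0.00059 in edgeR's test) and Nme2 with one of 0.57 (adjusted p = 0.0077). The count fell to 1 without replicate 2 and without replicate 3, where Nme2 had an adjusted p of 0.031 and 0.013. Nme1 and Nme2 encode near-identical nucleoside diphosphate kinases, so their counts are uncertain where reads match both. Of 10 breakdown genes tested, 1 was up-regulated and 1 down-regulated, against 6.31% and 5.51% of all genes tested. Counts this small are not read as a result about the list. Ampd2, an AMP deaminase, was up-regulated with a log2 fold change of 0.54 (adjusted p = 0.0045 in edgeR's test), a call that was lost without replicate 3 (adjusted p = 0.054). Gda, guanine deaminase, was down-regulated with one of -0.89 (adjusted p = 0.0056). Its levels were 146.2, 30.9 and 60.7 CPM in the mock cultures and 131.3, 10.7 and 26.5 CPM in the NRG1 cultures, so that the fall was smallest in replicate 1. The call of Gda was lost without replicate 2 (adjusted p = 0.025) and without replicate 3 (adjusted p = 0.031). Another 9 breakdown genes did not pass the filter, among them Xdh, counted 658 and 617 times in the samples of replicate 1 and at 0 in the other 4.

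None of the 9 genes of deoxynucleotide synthesis passed edgeR's test at an adjusted p of 0.01, nor DESeq2 at the same threshold. The same held for the 4 nucleoside transporters tested. In edgeR, 3 and 0 genes of these lists had an unadjusted p under 0.05, as had 3479 of the 9740 genes tested. Of those 3, Dctd was higher with NRG1 (log2 fold change 0.67), while Tyms and Rrm2b were lower (-0.64 and -0.54). The deoxynucleotide genes had a median log2 fold change of -0.08. Dtymk, a kinase of thymidylate and the most abundant of them, had a mean of 56.8 ± 11.9 CPM (SD, n = 3) without and 53.8 ± 8.70 CPM (SD, n = 3) with NRG1. Slc29a1, the transporter gene with the highest mean over the 6 samples, owed that to replicate 1, at 153.0 and 191.3 CPM there and at most at 3.78 CPM in the other 4. In those 4 samples Slc29a3 was higher, at 27.8 to 44.4 CPM. Of 15 markers of S phase and mitosis, 2 were up-regulated, against 6.31% of all genes tested, and so small a count is not read as a result about the list. They were Mcm5 with a log2 fold change of 1.31 (adjusted p = 0.0020 in edgeR's test) and Cdt1 with one of 1.19 (adjusted p = 0.0033). The median log2 fold change of the list was 0.10. Mki67 had a log2 fold change of 0.06 (adjusted p = 0.86).

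**Figure D5:**
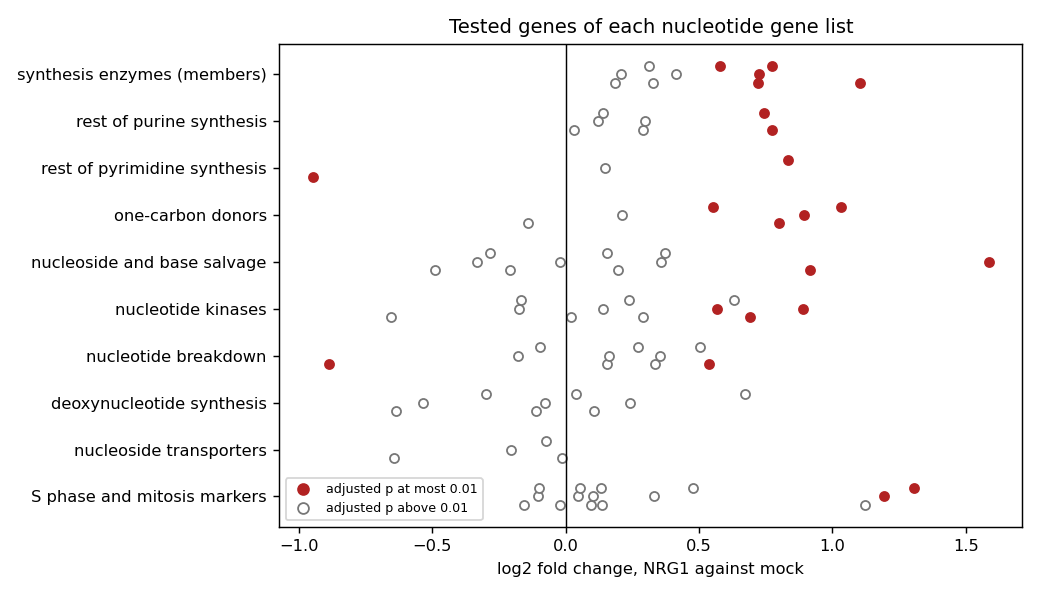
Log2 fold change of NRG1 against mock (horizontal axis) of each tested gene, 1 point per gene, by list. Filled points passed an adjusted p of 0.01, and the lists of synthesis and one-carbon genes lie mostly to the right of 0. So do 8 of 11 nucleotide kinases, 7 of 10 breakdown genes and 11 of 15 S phase and mitosis markers. Of the salvage genes 6 of 11 lie there, and of all genes tested 47.2%. The deoxynucleotide genes lie on both sides with a median of -0.08, and none of the 4 nucleoside transporters lies to the right of 0.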

How the data were processed

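Poly(A) RNA of 6 samples, 3 mock and 3 NRG1, was read on an Illumina NextSeq instrument. TopHat2 2.0.10 (alignment to the rat rn5 assembly) and HTSeq (assignment to RefSeq genes) were run by the authors, who deposited raw counts. The setting for strand and for overlapping genes is not given in the sources used here. Between 47.0% and 49.9% of the alignments of a sample lay on genes, and the 5 summary lines that hold the rest were left out.

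Counts were fitted with edgeR 4.0.16 in R 4.3.3 (filterByExpr with a minimum count of 10, TMM normalisation, quasi-likelihood test and the replicate number as a block), with Benjamini-Hochberg adjustment over 9740 genes. A standard error was taken as log2 fold change over the root of F. Pair ratios used a prior count of 2. Samples with the same number came from the same cell preparation, and across genes their deviations from the group means correlated with r of 0.91, 0.67 and 0.81. Scripts were tested on simulated data. DESeq2 1.42.0 and other settings served as alternatives. The members and lists were chosen with earlier results of these data known. All 10 members are named, and of the other lists at most the 4 called genes of smallest p, or the most abundant where none was called, apart from enzymes named for their place in the routes or after their values were seen. Single values of some listed genes are not reported here.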

Additional observations from a re-analysis of the deposited data

How the results depend on the processing

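The 5 calls held in edgeR with RLE or upper quartile normalisation, without the low-count filter, with at least 10 counts in every sample, with robust empirical Bayes and in DESeq2 with the replicate block. The calls rested on the pairing. With no replicate block, 0 members passed the test, 0 passed both thresholds, and 0 genes of the other pathway lists were up-regulated and 0 down-regulated, in place of 5, 1, 13 and 2. The common biological coefficient of variation was 0.12 with the block and 0.37 without it. Over all genes edgeR without it called 0, with 1334 at an unadjusted p under 0.05. Leaving out a replicate gave from 4 to 5 members up-regulated and 1 past both thresholds, with a median log2 fold change of 0.44 to 0.59. Of all genes tested, 5.94%, 5.07% and 4.02% were up-regulated without replicate 1, 2 and 3. In the other pathway lists, between 8 (without replicate 3) and 11 genes were then up and between 1 (without replicate 2 or 3, Gda being lost) and 2 down. Robust empirical Bayes left 1 gene of those lists down, since Gda was lost (adjusted p = 0.031). The mean change of the log2 ratio lay between 0.05 and 0.19 for Impdh2 to Impdh1 and between -1.21 and -1.07 for Ctps2 to Ctps1 when a replicate was left out. The latter result was added after seeing the data.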

Other observations

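Outside the lists, the 5 genes whose levels over the 6 samples ran most like the mean profile of the 10 enzymes, among 8611 genes of at least 5 CPM, were Grwd1, Mybbp1a, Nampt, Nle1 and Fbl. Grwd1 and Nle1 act in ribosome assembly, Fbl methylates ribosomal RNA, Mybbp1a is a nucleolar protein and Nampt encodes the rate-limiting enzyme of NAD salvage, which uses PRPP. In edgeR's quasi-likelihood test, Nampt had a log2 fold change of 1.69 (SE 0.14, adjusted p = 4.6e-06) and Grwd1 one of 0.79 (SE 0.13, adjusted p = 0.00084). The 5 genes were picked for their profile over these same samples, and so their likeness to the enzymes is a description only.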
